A study of Mus musculus with 6 samples.

Results

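The semaphorins and their receptors, the plexins and neuropilins, were examined in the accessible chromatin of mouse embryonic fibroblasts. Members were taken by symbol, as protein-coding autosomal genes named Sema, Plxn, Nrp1 or Nrp2, and numbered 29 of 20661 autosomal protein-coding genes. They comprised 20 semaphorins and 9 receptors (7 plexins and 2 neuropilins). Plxna3 and Plxnb3 lie on the X chromosome and were left out by this rule. A window of each gene body with 20 kb beyond both ends was searched, and 1105 of the 323483 accessible intervals of the experiment overlapped these windows.

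The intervals came from ATAC-seq, in which a transposase cuts accessible DNA, on fibroblasts of the cross M2-rtTA x TetO-Myf6, heterozygous for both alleles, so that doxycycline switches on the muscle regulator Myf6. All 6 libraries were from cells kept for 24 h in iMPC medium, which holds bFGF at 10 ng/mL. The medium group had nothing added, the Myf6 group had doxycycline at 2 µg/mL, and the Myf6+F/R/C group had doxycycline with forskolin (5 µM), RepSox (5 µM) and CHIR99021 (3 µM), with 2 libraries in each. The deposited intervals are 1 joined set with positions only. Nothing below therefore compares the groups, no value has a replicate error or a test, and the depth behind an interval is unknown. Of 10 fibroblast marker genes, all 10 had an interval within 1 kb of a start, 832 to 2522 bp wide, against 1 of 6 blood cell, 2 of 4 endothelial, 2 of 3 neuronal and 3 of 4 epithelial markers. The widest of these reached 925 bp in the blood list, 651 bp in the endothelial, 684 bp in the neuronal and 1587 bp in the epithelial list. Of all autosomal protein-coding genes, 74.4% had a start interval, so the neuronal and epithelial counts lay near that share. Of 4 neuronal markers listed, 3 were found.

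Semaphorins are guidance proteins that share a sema domain and act on the cytoskeleton and adhesion of the cells that receive them. Class 3 is secreted, classes 4, 5 and 6 are held in the membrane by a transmembrane segment, and class 7 by a lipid anchor. Plexins are the signalling receptors, and most class 3 semaphorins reach plexins of the A type through a neuropilin, which binds the ligand but signals little by itself. Neuropilins also bind vascular endothelial growth factors. In mesenchyme these proteins are known for steering nerves, vessels and migrating cells.

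The sequences at listed starts are given here for some of the members. RefSeq (GRCm38.p6) lists 35 starts for 24 of the 29 genes, each with 250 bases before and 50 after it. Those below were chosen as pairs that differ within a gene or class, with Plxnc1 as the member with the widest start interval. They read 5′ to 3′ along the gene, and capitals mark each CpG.
Sema3c (chr5:17574566-17574865, plus strand): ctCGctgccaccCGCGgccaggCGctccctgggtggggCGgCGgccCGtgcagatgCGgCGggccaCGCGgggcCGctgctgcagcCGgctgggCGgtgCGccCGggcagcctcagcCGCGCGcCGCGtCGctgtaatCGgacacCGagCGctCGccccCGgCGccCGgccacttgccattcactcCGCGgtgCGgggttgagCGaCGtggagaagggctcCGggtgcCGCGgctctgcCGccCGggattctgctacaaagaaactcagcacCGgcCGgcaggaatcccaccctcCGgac
Sema3a (chr5:13396534-13396833, plus strand): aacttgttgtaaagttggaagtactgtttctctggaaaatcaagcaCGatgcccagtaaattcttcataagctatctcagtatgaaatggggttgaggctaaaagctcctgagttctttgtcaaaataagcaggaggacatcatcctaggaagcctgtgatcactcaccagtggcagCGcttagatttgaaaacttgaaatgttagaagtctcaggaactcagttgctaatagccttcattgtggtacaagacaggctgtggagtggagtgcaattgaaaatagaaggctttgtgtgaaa
Sema6d, outer start (chr2:124089719-124090018, plus strand): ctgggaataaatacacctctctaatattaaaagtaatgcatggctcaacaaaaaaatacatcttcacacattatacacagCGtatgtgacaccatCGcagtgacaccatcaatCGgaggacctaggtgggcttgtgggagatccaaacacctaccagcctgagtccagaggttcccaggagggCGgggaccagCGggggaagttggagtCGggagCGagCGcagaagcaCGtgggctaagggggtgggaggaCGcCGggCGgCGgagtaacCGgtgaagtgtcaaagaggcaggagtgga
Sema6d, inner start (chr2:124653331-124653630, plus strand): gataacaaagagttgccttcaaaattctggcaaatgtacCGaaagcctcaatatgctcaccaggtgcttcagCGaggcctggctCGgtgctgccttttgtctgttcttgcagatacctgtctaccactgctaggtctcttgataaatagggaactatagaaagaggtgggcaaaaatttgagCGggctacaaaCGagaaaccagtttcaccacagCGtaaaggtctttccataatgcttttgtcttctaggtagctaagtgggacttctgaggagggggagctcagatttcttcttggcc
Sema6c, outer start (chr3:95160170-95160469, plus strand): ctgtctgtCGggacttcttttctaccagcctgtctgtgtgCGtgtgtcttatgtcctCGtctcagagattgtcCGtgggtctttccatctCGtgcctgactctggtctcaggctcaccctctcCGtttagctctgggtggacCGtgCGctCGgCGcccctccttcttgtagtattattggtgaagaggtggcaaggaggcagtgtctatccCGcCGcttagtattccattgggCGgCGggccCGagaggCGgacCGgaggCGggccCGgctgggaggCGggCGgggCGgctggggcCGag
Sema6c, inner start (chr3:95164089-95164388, plus strand): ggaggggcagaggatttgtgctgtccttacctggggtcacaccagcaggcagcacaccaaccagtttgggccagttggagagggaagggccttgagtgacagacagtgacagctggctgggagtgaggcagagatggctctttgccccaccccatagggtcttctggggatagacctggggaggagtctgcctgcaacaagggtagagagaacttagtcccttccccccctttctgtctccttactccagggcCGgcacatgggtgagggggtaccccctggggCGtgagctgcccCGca
Plxnc1 (chr10:94944796-94945095, minus strand): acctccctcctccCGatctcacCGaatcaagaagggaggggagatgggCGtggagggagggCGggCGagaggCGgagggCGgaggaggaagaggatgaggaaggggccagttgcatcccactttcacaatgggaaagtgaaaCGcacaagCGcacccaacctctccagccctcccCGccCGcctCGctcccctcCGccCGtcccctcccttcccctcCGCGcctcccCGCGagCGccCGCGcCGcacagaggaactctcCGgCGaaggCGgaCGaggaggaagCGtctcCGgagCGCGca
Nrp1 (chr8:128358823-128359122, plus strand): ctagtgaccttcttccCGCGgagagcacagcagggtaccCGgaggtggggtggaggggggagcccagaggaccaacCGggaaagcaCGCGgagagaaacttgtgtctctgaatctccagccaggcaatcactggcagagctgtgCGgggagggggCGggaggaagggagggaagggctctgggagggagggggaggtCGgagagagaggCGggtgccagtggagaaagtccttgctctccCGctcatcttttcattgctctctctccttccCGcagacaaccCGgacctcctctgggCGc
Nrp2 (chr1:62703067-62703366, plus strand): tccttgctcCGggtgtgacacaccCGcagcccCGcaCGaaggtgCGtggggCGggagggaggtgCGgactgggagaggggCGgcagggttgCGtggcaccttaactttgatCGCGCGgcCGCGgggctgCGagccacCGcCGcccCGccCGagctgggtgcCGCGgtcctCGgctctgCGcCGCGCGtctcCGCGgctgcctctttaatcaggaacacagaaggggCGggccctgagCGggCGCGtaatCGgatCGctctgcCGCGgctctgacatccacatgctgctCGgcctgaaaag
Sema3c, with 42 CpG in the 300 bases, lay wholly inside an interval of 1562 bp. Sema3a, with 2 CpG, had no base inside an interval. That listed start of Sema3a lies 271962 bp inside the outer end of the gene, which had an interval of 1640 bp within 1 kb. The outer start of Sema6d (14 CpG) was covered over all 300 bases and the inner one (6 CpG) over none. In Sema6c the outer start (23 CpG) was covered over all 300 bases, and the inner one (3 CpG) over 182 bases that ended 47 bp before the start itself. Nrp1 and Nrp2 were both covered over all 300 bases, although Nrp1 had 14 CpG and Nrp2 had 37.

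All 29 members had an interval within 1 kb of a start, or of either gene end for the 5 genes with no listed start (Sema3b, Sema3f, Sema6a, Plxna1 and Plxna4). Of all autosomal protein-coding genes, 74.4% had one by the same measure. Among the 24 members with a listed start all 24 had one, against 73.4% of such genes, and in 23 a start itself lay inside an interval, against 66.8%. The 5 members without a listed start all had one at a gene end, against 78.4%. The exception among covered starts was Sema3a, whose nearest interval began 91 bp past the listed start. In all, 28 of the 35 listed starts were covered and 32 had an interval within 1 kb.

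Start intervals were wide at the receptors and of mixed width at the semaphorins. The widest interval within 1 kb of a start had a median of 2255 bp over the 9 receptors (898 to 3086 bp) and of 1282.5 bp over the 20 semaphorins (180 to 2794 bp), so the ranges overlapped. The median over all autosomal protein-coding genes was 1047 bp, and over those with a start interval it was 1263 bp. An interval of at least 2000 bp stood at 6 of 9 receptors and 3 of 20 semaphorins, against 6.86% of all genes. An interval of at least 1000 bp stood at 7 receptors and 12 semaphorins, against 52.5%. Of the 15373 genes with a start interval, 1417 had one of at least 2000 bp. Receptor genes were longer, with a median of 115 kb against 34.4 kb for semaphorins. Of genes of 100 kb or more, 4 of 5 receptors and 2 of 9 semaphorins reached 2000 bp, against 324 of 2312 autosomal genes. Of shorter genes, 2 of 4 receptors and 1 of 11 semaphorins did, against 1093 of 18349. Width tells how far merged peaks extend, not how strong the signal was.

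**Figure D1:**
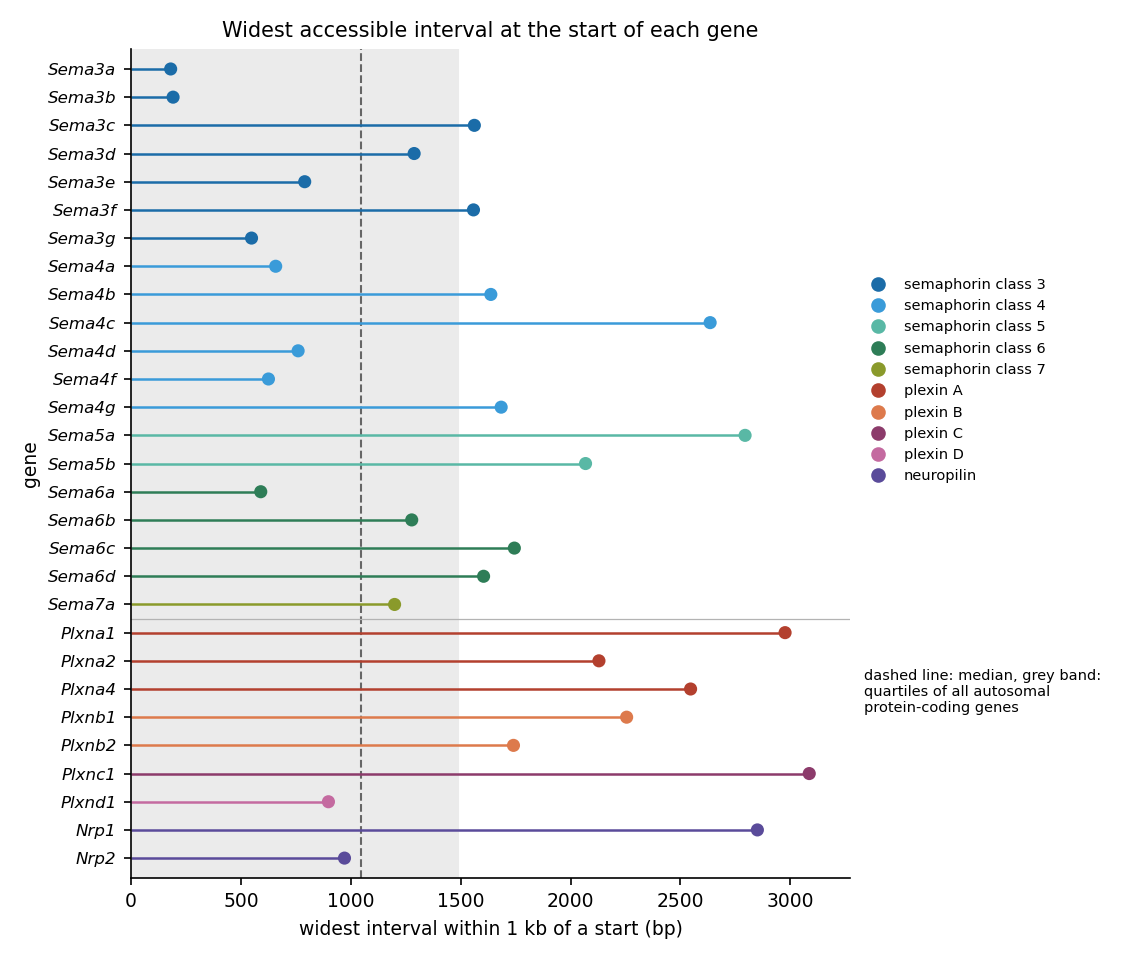
Widest accessible interval within 1 kb of a start (horizontal axis, bp) for each of the 29 genes, coloured by class. The dashed line and grey band give the median (1047 bp) and quartiles (0 to 1487 bp) of all autosomal protein-coding genes, and 7 of the 9 receptors, all but Plxnd1 and Nrp2, lie beyond the band. Of the 20 semaphorins, Sema3c, Sema3f, Sema4b, Sema4c, Sema4g, Sema5a, Sema5b, Sema6c and Sema6d also lie beyond it.

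The plexins held the widest of these. Plxnc1, the receptor of Sema7a, had 3086 bp (chr10:94942711-94945796), reaching 951 bp before its start and 2134 bp into the gene. Plxna1 had 2976 bp at its upper end (chr6:89360547-89363522), which also overlapped the predicted gene Gm40415. Plxna4 had 2546 bp (chr6:32586312-32588857) and Plxna2 had 2129 bp (chr1:194618840-194620968), which makes all 3 autosomal A-type plexins, the partners of neuropilins and of class 6 semaphorins, wider than 2000 bp. Of the B-type plexins, which bind class 4 semaphorins, Plxnb1 had 2255 bp, nearly even about its start (1067 bp before and 1187 bp after). Plxnb2 had 2 listed starts, both covered, in intervals of 1740 bp and 1271 bp. Plxnd1, the receptor of Sema3e, had 898 bp and was the narrowest of the receptors.

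The neuropilins differed from each other. Nrp1 had an interval of 2850 bp (chr8:128356990-128359839), of which 2083 bp lay before the start, the longest upstream reach of any covered start among the members. Nrp2 had 971 bp (chr1:62702827-62703797), placed evenly with 490 bp before and 480 bp after. Nrp1 was wider at the start than 99.6% of autosomal protein-coding genes, and Nrp2 lay below their median of 1047 bp.

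Among the secreted class 3 semaphorins the median was 790 bp over 7 genes, below the 1047 bp of all genes. This order turned when the outer end of the annotated gene also counted as a start, with 1288 bp for class 3 and 1060 bp for all genes, and Sema3a then had 1640 bp in place of 180 bp. Sema3c (1562 bp), which guides cells of the cardiac outflow tract, Sema3f (1558 bp) and Sema3d (1288 bp) were above the median of all genes at their listed starts or gene ends. Sema3e (790 bp), Sema3g (548 bp), Sema3b (191 bp) and Sema3a (180 bp), the founding axon repellent of the class, were below it. In Sema3c the interval lay mostly before the start (1200 bp against 361 bp), and in Sema3d mostly after it (124 bp against 1163 bp).

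Class 4 ranged from 625 to 2635 bp and class 6 from 590 to 1744 bp. Sema4c had 2635 bp (chr1:36555850-36558484), which held both of its listed starts. Sema4g (1684 bp) and Sema4b (1637 bp, with 1349 bp at its other start) followed, and Sema4d (760 bp, or 1631 bp with its outer end), Sema4a (658 bp) and Sema4f (625 bp) were narrower at their listed starts. Sema4d, also called CD100, is a ligand of Plxnb1. Of the 4 listed starts of Sema4a, 2 shared the interval of 658 bp and the other 2 had none within 1 kb. In class 6, whose members bind A-type plexins, Sema6c had 1744 bp, Sema6d 1604 bp, Sema6b 1277 bp and Sema6a 590 bp. The pair of class 5, which carry thrombospondin repeats, were both wide, with 2794 bp at Sema5a (chr15:32243838-32246631) and 2068 bp at Sema5b (chr16:35540315-35542382). Sema7a had 1199 bp.

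**Figure D2:**
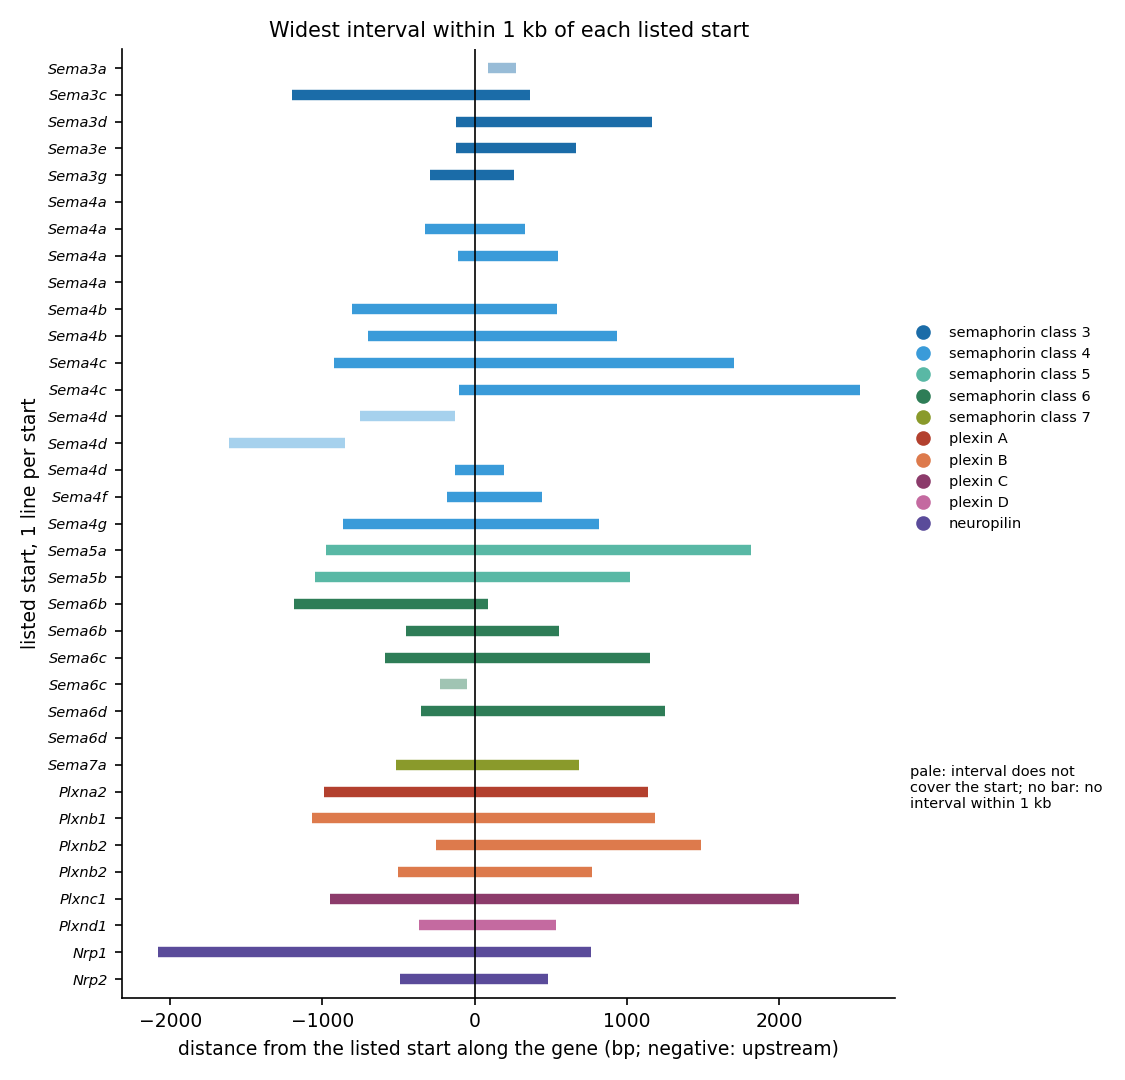
Reach of the widest interval within 1 kb of each of the 35 listed starts, in bp along the gene, with the start at 0 and upstream to the left. Of 28 covered starts 19 reach farther downstream than upstream, Nrp1 reaches farthest upstream (2083 bp), and 3 starts (2 of Sema4a, 1 of Sema6d) have no bar.

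Covering intervals mostly extended farther into the gene than before it. Over the 28 covered starts the median reach was 508 bp upstream and 767.5 bp downstream, and 19 (67.9%) reached farther downstream. Over the 13127 covered starts of autosomal genes the medians were 510 bp and 700 bp, and 62.6% reached farther downstream. The 8 covered receptor starts had medians of 726 bp and 954 bp, and the 20 covered semaphorin starts had 481.5 bp and 676 bp.

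At 2 semaphorins a wide interval lay at the outer end of the annotated gene, far from any listed start. In Sema3a the listed start is 271962 bp inside the gene's outer end (13124822 on chromosome 5), and within 1 kb of that end stood an interval of 1640 bp (chr5:13125203-13126842), the widest in its window. Sema4d, on the minus strand, has its nearest listed start 36995 bp from its outer end. An interval of 1631 bp (chr13:51792235-51793865) spanned that end, which lies on the side of the start. When the outer end also counted as a start, a choice made after the values were seen, the semaphorin median was 1560 bp and that of the receptors stayed at 2255 bp. With it 14 semaphorins had a start interval of at least 1000 bp, against 53.4% of all genes, and the class 3 and class 4 medians were 1288 bp and 1634 bp. The counts at 2000 bp, 3 semaphorins and 6 receptors, were as before, against 7.03% of all genes. Wide intervals just beyond the search distance stood near Sema3b (2121 bp, chr9:107611314-107613434, outside the gene) and in Sema6a (2083 bp, chr18:47366261-47368343, inside it).

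Covered starts held more CpG than uncovered ones by their medians, as they did over all genes. The 28 covered starts had a median of 23 CpG in 300 bases (2 to 42), and the 7 uncovered starts had a median of 3 (2 to 7). For all autosomal protein-coding genes the medians were 21 and 3. Receptor starts had a median of 26 CpG (14 to 37, 8 starts), and semaphorin starts 11 (2 to 42, 27 starts). Over all 20084 starts of autosomal protein-coding genes the median was 14. A gene with several listed starts counts once for each of them here. Over the 24 genes with a listed start, CpG count and start interval width had a Spearman's rho of 0.56 and a Pearson's r of 0.52, and over all 16456 such genes 0.70 and 0.67. All 24 members had a start interval, but of the 16456 genes only 12075 had one, so the coefficients are not of like sets. These values are descriptions across genes of 1 interval set, which share their libraries, and genes are not replicates.

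**Figure D3:**
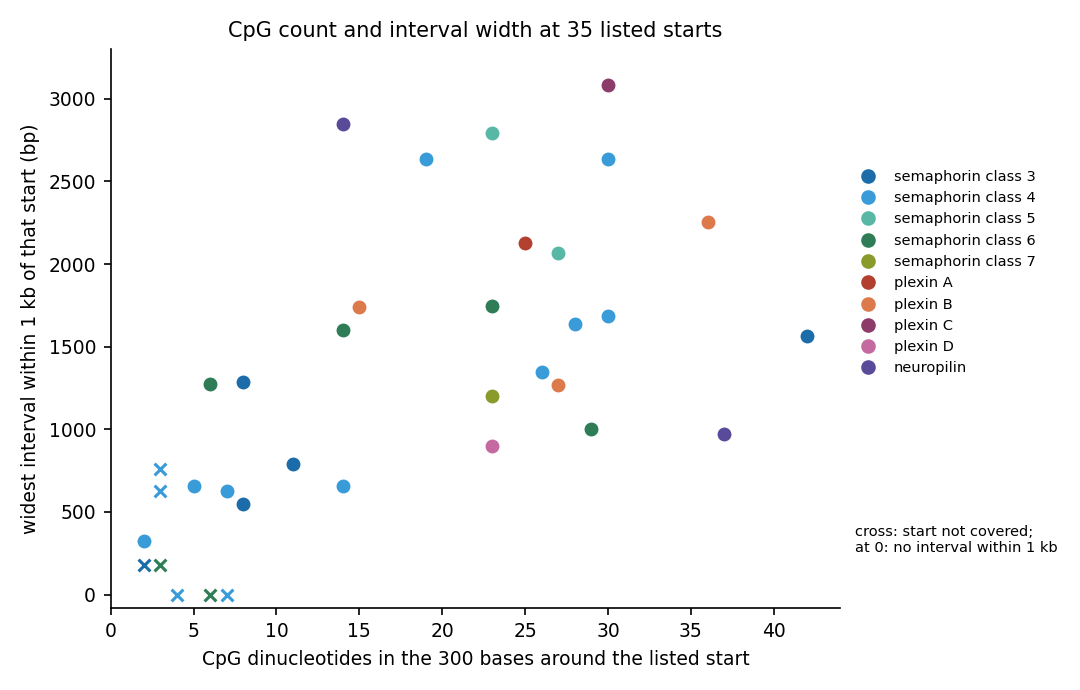
CpG dinucleotides in the 300 bases around each of the 35 listed starts (horizontal axis) against the widest interval within 1 kb of that start (vertical axis, bp). Crosses mark the 7 starts outside any interval, all with 7 CpG or fewer. Over the 24 genes with a listed start the 2 values rose together (Spearman's rho 0.56). Nrp1 (14 CpG, 2850 bp) and Nrp2 (37 CpG, 971 bp) are a pair in the opposite order.

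Short motifs were counted on both strands of these 300 bases. GGGCGG, the core of the GC box, was in 26 of 35 member windows (74.3%) and in 35.7% of all 32851 RefSeq windows. This background, used for every motif here, is not limited to autosomal protein-coding genes, which have 20084 windows, so it is not a like set. It was in all 8 receptor windows and in 18 of 27 of the semaphorins. CCAAT was in 7 windows (20.0% against 37.4%), none of them of a receptor, and TATAAA in none (13.6% of all). Windows with CANNTG, the general E-box bound by proteins of the Myf6 type, made up 57.1% against 72.3%. CAGCTG, which is also counted as CANNTG, was in 5 windows (14.3% against 16.3%), at Sema3g, Sema4d, Sema4g, Sema6c and Sema7a. TGANTCA, the site of AP-1, was in 3 windows (8.57% against 7.81%), and GGAATG, that of TEAD factors, also in 3 (8.57% against 14.7%). The cAMP response element TGACGTCA was in none (1.79% of all). A match is a description of letters and not a bound site.

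Across whole windows the members held a median of 2.48 intervals per 10 kb, against 1.89 for all autosomal protein-coding genes (quartiles 1.03 and 2.58). Receptors had a median of 2.78 (1.41 to 4.10) and semaphorins of 2.27 (1.53 to 4.23), so the 2 sides overlapped almost fully. The order turned when only gene bodies counted (2.79 for receptors and 2.97 for semaphorins), and it also turned with Plxna3 and Plxnb3 added (2.26 and 2.27). Among genes of 100 kb or more the medians were 2.78 over 5 receptors, 1.93 over 9 semaphorins and 1.77 over all autosomal genes of that size. Among genes under 100 kb they were 2.98, 2.91 and 1.91. Against genes with windows of 0.8 to 1.25 times their length, 15 of 20 semaphorins and 6 of 9 receptors lay above the median.

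**Figure D4:**
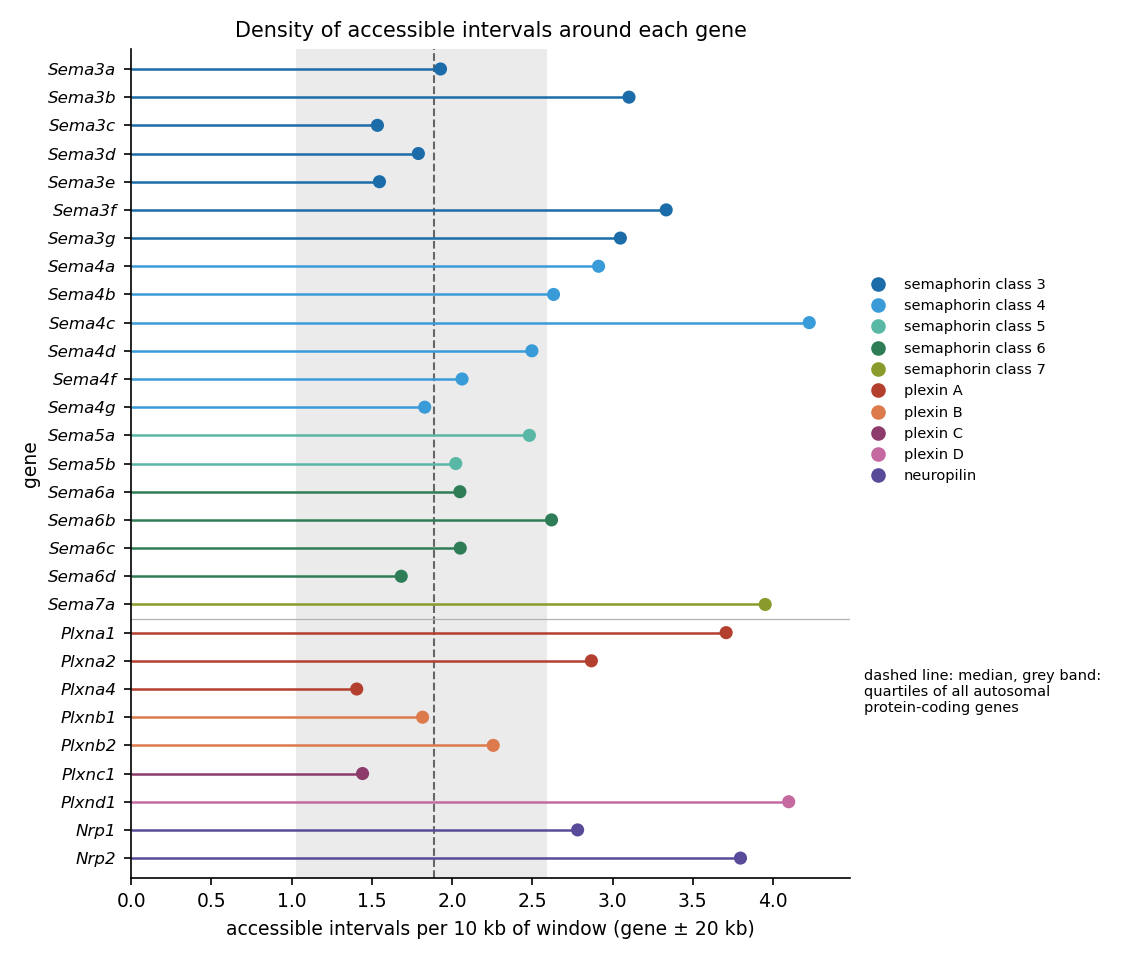
Accessible intervals per 10 kb of window (gene with 20 kb beyond each end) for each of the 29 genes, coloured by class. The dashed line and grey band give the median (1.89) and quartiles (1.03 to 2.58) of all autosomal protein-coding genes, and Sema4c (4.23), Plxnd1 (4.10) and Sema7a (3.95) lie highest.

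Of the 5 densest windows, only that of Nrp2 belonged to a gene of 100 kb or more. Sema4c held 22 intervals in 52.1 kb (4.23 per 10 kb), but 16 of these lay over another protein-coding gene. Plxnd1 held 33 in 80.5 kb (4.10 per 10 kb), 22 of them over its body, and 1 over another gene. Sema7a held 25 in 63.3 kb (3.95 per 10 kb), and its 20 kb from 57935657 on chromosome 9 held 14, the most in any such stretch of a member. Nrp2 held 59 in 155.4 kb (3.80 per 10 kb) and Plxna1 32 in 86.3 kb (3.71 per 10 kb). In these 5 genes the density was above that of at least 97.6% of genes with a like window length.

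Receptors at the other end included Plxna4, with 68 intervals in 483.7 kb (1.41 per 10 kb), and Plxnc1, with 28 in 194.2 kb (1.44 per 10 kb). Plxnc1 thus joined the widest start interval of the members with 1 of their 2 lowest densities. Among genes with a like window length, Plxna4 lay above 48.5% and Plxnc1 above 30.6%, so Plxna4 was near the middle of such genes. Plxnb1 had 12 intervals (1.82 per 10 kb), Plxnb2 15 (2.26), Nrp1 52 (2.78) and Plxna2 68 (2.87). Plxna4 also had the longest stretch of any member without an interval, 42.7 kb (32218939 to 32261617 on chromosome 6).

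In class 3 the 4 long genes had lower densities than the 3 short ones. Sema3a (100 intervals, 1.93 per 10 kb), Sema3d (44, 1.79), Sema3e (42, 1.55) and Sema3c (30, 1.53) are long genes of chromosome 5 and shared no interval with another protein-coding gene. Sema3f (23 intervals, 3.33 per 10 kb), Sema3b (16, 3.10) and Sema3g (16, 3.05) are short genes among neighbours, and 5, 10 and 9 of their intervals lay over other genes. Of genes with a like window length, Sema3a lay above 73.4%, Sema3d 49.2%, Sema3e 40.1% and Sema3c 34.5%. The shares were 92.9% for Sema3f, 86.1% for Sema3b and 84.8% for Sema3g. The longest gaps without an interval in this class lay in Sema3a (33.7 kb), Sema3c (33.2 kb) and Sema3e (34.1 kb).

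The membrane-bound classes ranged from Sema6d at 1.68 to Sema4c at 4.23 intervals per 10 kb. In class 4 beside Sema4c, Sema4a had 19 intervals (2.91 per 10 kb), Sema4b 21 (2.63), Sema4d 37 (2.50), Sema4f 14 (2.06) and Sema4g 10 (1.83). In class 6, Sema6b had 15 (2.62), Sema6a 34 (2.05), Sema6c 11 (2.05) and Sema6d 104 (1.68). Sema6d nonetheless lay above 69.3% of genes with a like window length. Sema5a held 122 intervals, the most of any member, at 2.48 per 10 kb, above 91.4% of genes with a like window length, and Sema5b held 33 (2.02 per 10 kb). By covered sequence, members ranged from 5.87% of the window (Sema3e) to 21.8% (Sema4c), with a median of 12.3%, against 9.56% for all autosomal protein-coding genes.

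Away from the starts of the members the intervals of the 2 sides had nearly equal median widths. The 704 semaphorin intervals with no start of a member within 1 kb had a median of 354.5 bp and the 352 receptor intervals 356.5 bp. Starts of neighbouring genes were not taken out, so the widest of these intervals lay over Nisch (2530 bp) and Mapk11 (2069 bp). All intervals on autosomes, those at starts included and so not a like set, had a median of 337 bp. Intervals of at least 1000 bp made up 6.53% and 7.10% of the 2 groups, and 8.74% of all intervals on autosomes. Of the 665 intervals around semaphorins with a listed start, 4.06% had their midpoint within 1 kb of one and 49.6% beyond 50 kb. The receptors' shares were 3.37% and 48.7% of 267. These shares were not set beside those of all genes.

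Wide intervals inside gene bodies, away from starts and from other genes, were found in both sides. In Nrp1 they were at chr8:128415759-128417629 (1871 bp) and chr8:128464162-128465970 (1809 bp), with midpoints 57621 bp and 105993 bp past the start. Plxna1 had one of 1636 bp (chr6:89344763-89346398) and Plxnc1 one of 1627 bp (chr10:94818239-94819865), 125793 bp past its start. Among semaphorins, Sema3d had one of 1550 bp (chr5:12549179-12550728), 166788 bp past its start, and Sema5a one of 1378 bp (chr15:32432672-32434049). In Sema6d an interval of 1375 bp (chr2:124609719-124611093) had its midpoint at -43175 bp from the inner start and opened a stretch of 20 kb with 12 intervals, the densest of that gene.

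**Figure D5:**
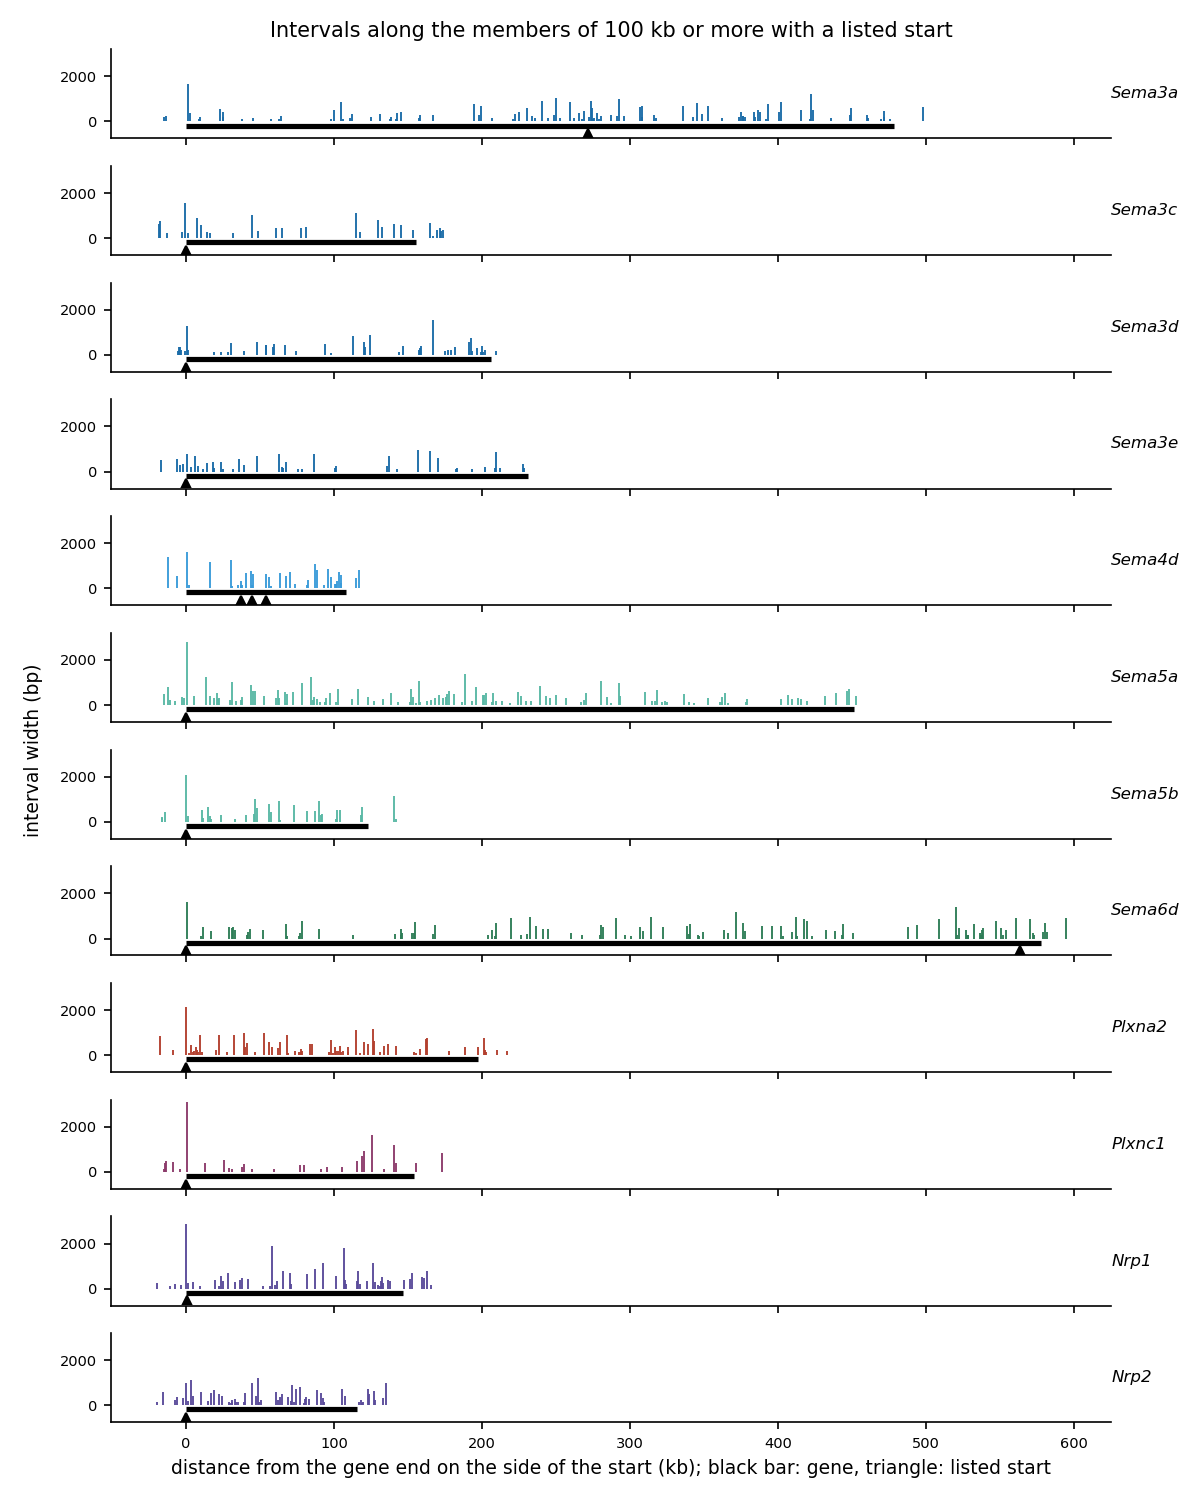
Intervals along the 12 members of 100 kb or more with a listed start. The horizontal axis gives the distance in kb from the gene end on the side of the start, and each vertical line is an interval with its width in bp. The gene is the black bar and listed starts are triangles, and in Sema3a and Sema4d the tallest line stands at the outer end and not at a triangle.

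Along the long genes the intervals were spread from end to end. When each body was split into 5 equal parts from the start side, the 8 semaphorins had 20.5, 19.4, 20.7, 17.7 and 21.6% of 468 midpoints in successive parts. The 1772 autosomal genes of that size with a listed start had 20.9, 19.5, 19.8, 19.6 and 20.2%. The 4 receptors had 22.0, 22.6, 20.7, 20.1 and 14.6% of 164. Single genes were less even. Sema3e had 34.2% of its 38 in the first part, Sema3d 34.2% of its 38 and Sema4d 33.3% of its 33 in the last, and Sema3a 28.9% of its 97 in the middle one, where its listed start lies. Plxna2 had 8.33% of its 60 and Nrp2 9.30% of its 43 in the last part.

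Known ligands and their receptors were also set side by side, without a test of their likeness. Sema7a had a start interval of 1199 bp and 3.95 intervals per 10 kb, and its receptor Plxnc1 3086 bp and 1.44. For Sema3e the values were 790 bp and 1.55, and for its receptor Plxnd1 898 bp and 4.10. Sema4d had 760 bp (1631 bp with its outer end) and 2.50, and Plxnb1 2255 bp and 1.82. Sema3a, which binds Nrp1, had 180 bp (1640 bp with its outer end) and 1.93, and Nrp1 2850 bp and 2.78. Sema3f, a ligand of Nrp2, had 1558 bp and 3.33, and Nrp2 971 bp and 3.80.

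Partners and effectors of semaphorin signalling, 40 genes listed by their textbook roles, had a median of 2.52 intervals per 10 kb. Of these, 38 had a start interval, against 74.4% of all genes, with a median width of 1408 bp over the 40. The densest were Rac1 (4.32 per 10 kb), the GTPase that plexins act on, Farp1 (3.60) and Mical2 (3.48), an oxidase that disassembles actin filaments. The sparsest were Chl1 (0.84), a cell adhesion molecule that works with neuropilins, Rock1 (0.89) and the Sema4d receptor Cd72 (1.48). Of other families at the cell surface, the 7 autosomal ephrin ligand genes had medians of 2.73 per 10 kb and 1778 bp at the start. The 27 integrin genes had 2.42 per 10 kb and 1156 bp. Median gene lengths were 9.22 kb for ephrin ligands, 55.9 kb for integrins and 115 kb for the receptors of semaphorins. Start intervals of at least 2000 bp stood at 1 of 7 ephrin ligand genes, 1 of 27 integrin genes and 6 of the 40 partner genes. They stood at 6 of 9 receptors of semaphorins and at 6.86% of all autosomal protein-coding genes. These differences were not tested, since 1 joined set of positions gives no error between samples.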

How the data were processed

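The labels' protocols give 50000 cells per library and 12 cycles of PCR. Whether replicate libraries stem from different cultures is not stated there. BWA, MACS2, DESeq2 and the build GRCm38.p6 are named without roles, per the submitters' processing notes. The authors annotated consensus intervals with HOMER's annotatePeaks and GENCODE vM23, per the file headers. Peak calling and joining were not given in the sources used here.

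Deposited were positions of 323483 intervals, in no column tied to a library. The score column is 0 throughout and the annotation is blank, and neither was used. Tests between groups were planned and not run.

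RefSeq tables of the same build gave gene bodies and, for 24 of the 29 members, starts and strands. For genes without one, both ends were searched. An overlap of 1 bp counted, and an interval in several windows was counted for each gene. All members were named, with the 3 densest and 3 sparsest of 40 partner genes. Window counts equalled those of bedtools for all 21627 genes counted. The members and lists were chosen with earlier results of these data known. Computations used Python 3.11.15 (numpy 2.4.6, pandas 2.3.3) and figures matplotlib 3.10.9, with correlations from scipy 1.17.1.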

Additional observations from a re-analysis of the deposited data

How the results depend on the processing

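No paired analysis was possible because the deposited intervals are not tied to libraries, and leaving out replicates was not run for the same reason. The 1105 intervals in the windows fell to 642 with a minimum width of 300 bp and to 288 with 600 bp. With these minima the median per 10 kb was 1.46 and 0.608 for semaphorins and 1.62 and 0.696 for receptors. In covered bases per 10 kb the medians were 1136 for semaphorins and 1420 for receptors. The receptor minus semaphorin difference in median intervals per 10 kb, 0.51, changed sign with gene bodies only (-0.18) and with the X-linked plexins added (-0.016), and kept its sign in the other 10 alternatives. The difference in median start interval width, 972.5 bp, kept its sign in all 7 alternatives, between 695 and 972.5 bp. The minimum widths of 300 and 600 bp are no check on it, since they drop only intervals far narrower than both medians. It was 841 bp with listed starts only, and 695 bp with the longest search distance or with the outer gene end added. For this width the X-linked plexins were not added. Start intervals were found at 25 to 29 of the 29 members under 6 alternatives, the lowest with a minimum width of 600 bp. An interval may stem from 1 group or library only, and absence of an interval cannot be told apart from too little depth.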

Other observations

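Some of the widest intervals in the windows lay over neighbouring genes. An interval of 2530 bp in the flank of Sema3g (chr14:31204889-31207418) lay over Nisch, which encodes nischarin. Near Plxnb2, one of 2069 bp (chr15:89148340-89150408) lay over the kinase gene Mapk11. Over all windows, 77 of the 1105 intervals overlapped another protein-coding gene, and 22.1% of these 77 were at least 1000 bp wide, against 8.42% of all 1105.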
